A study of Mus musculus with 10 samples.

Results

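CD4+ effector memory T (TEM) cells were compared with CD4+ central memory T (TCM) cells of the same culture day, gene by gene. The comparison rests on 4 of the 10 arrays of the series, 2 of TEM cells and 2 of TCM cells, and on all 18193 genes with a named probe set, with the probe set of the highest mean standing for a gene that has several. Naïve CD4+ T cells (2 arrays) are given beside them as the starting population. The 4 arrays of CD8+ cells enter only the choice of the probe set and the estimate of the spread. The T cells came from spleens of C57BL/6 mice. The TEM and TCM cells were grown from naïve CD4+ T cells with IL-2 and γ-irradiated LMP1/2A+ B lymphoma cells, which express 2 latent membrane proteins of Epstein–Barr virus, and were sorted on day 25. The feeder lymphoma came from mice in which Cγ1-Cre switches on the viral genes in germinal center B cells, and was passed through immunodeficient recipients.

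After activation, T cells divide into effector memory cells, which stay poised to secrete cytokines and granule proteases in tissue, and central memory cells, which recirculate through lymph nodes and keep the capacity to expand. Return to the lymph node depends in part on CCR7, and exit from it on S1PR1, whose gene is controlled by KLF2 and FOXO1. Both subsets carry CD44, a surface mark of antigen experience.

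The sample titles call the groups EF and CM, and the source name of the CM arrays says only memory. The study defines both subsets by surface phenotype, with CD44 on each, but its methods do not describe the sort of these CM arrays. Other label entries do not describe T cells or differ within the TCM pair, among them a *Foxo1* status and a germinal center B cell description, and were set aside. *Foxo1* itself read 11.31 and 11.32 in TEM cells, against 12.18 and 11.68 in TCM cells (log2 fold change -0.61, SE 0.18, adjusted p = 0.0964). It passed the test with an intensity trend (adjusted p = 0.0329), and differed by -0.87 without TCM replicate 2. *Cd4* read 11.65 and 11.82 in TEM cells and 11.61 and 11.50 in TCM cells, and *Cd3e*, a chain of the T cell receptor complex, 13.28 and 13.17 against 12.92 and 13.06, so both groups carry the defining transcripts of CD4+ T cells. The gate marker *Cd44* averaged 10.99 ± 0.02 in TEM cells and 10.42 ± 0.30 in TCM cells (SD, n = 2 each, no overlap; difference 0.57, SE 0.18, adjusted p = 0.13). *Tcf7* was not analysed here.

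All values are log2 RMA signals, in which 1 unit is a 2-fold difference. A gene was called where its adjusted p in limma (Benjamini-Hochberg over all 18193 genes, all 10 arrays in the fit) was under 0.05. Whether the 2 arrays of a group are separate animals is not stated, so the p-values rest on the spread between these samples alone, which may be technical. The TCM pair was the wider one: 1253 genes differed at least 2-fold between its arrays, against 487 between the TEM arrays. A fit that leaves 1 array in a group takes no spread from that group, so a lower p there does not make a difference surer. The control probe sets at the 3′ and 5′ ends of *Gapdh*, which gauge RNA integrity, differed (3′ minus 5′, log2) by 1.19 and 1.31 in TEM, 1.72 and 1.13 in TCM and 2.49 and 2.42 in naïve CD4+ arrays. In sorted populations, fewer cells of a type and less RNA per cell cannot be told apart.

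TEM cells carried more transcript than TCM cells for effector products, with granzymes, interleukin 9, GM-CSF, interferon-γ and several chemokines among the largest differences. They carried less of *S1pr1*, *Klf2*, *Klf3* and *Il6ra*, although most listed genes of recirculation and quiescence were not called and some were higher. Of the 18193 genes, 1005 were called (5.52%), 707 higher in TEM cells (3.89%) and 298 lower (1.64%). No called gene had overlapping groups, but 8946 of all 18193 genes had none either, so a lack of overlap alone says little. A 2-fold or larger difference was reached by 538 of the genes called higher and 167 of those called lower, and a 4-fold one by 213 and 40. The median difference over all genes was -0.03. The counts depend on single arrays: without TEM replicate 1, 385 genes were called higher and 105 lower, and without TEM replicate 2, 414 and 128. Without either CD8+ TEM array, 177 were called lower. Where only the 4 arrays compared were fitted, 180 genes were called higher and 43 lower.

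**Figure D1:**
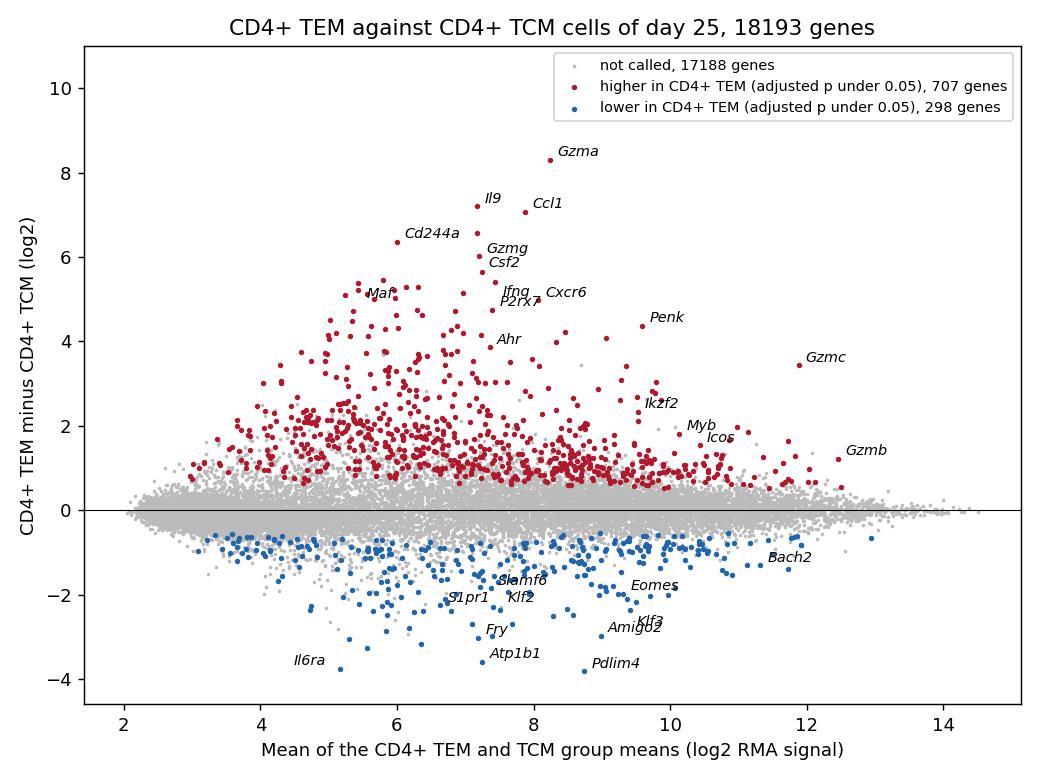
Difference between CD4+ TEM and TCM cells (y axis, TEM minus TCM, log2) against the mean of the 2 group means (x axis, log2 RMA signal) for 18193 genes, 1 point each. Red points are the 707 genes called higher in TEM cells and blue points the 298 called lower, and the differences run from -3.82 (*Pdlim4*) to 8.30 (*Gzma*).

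Of 24 cytokine genes measured, 12 were higher in TEM cells and 1 was lower, against 3.89% and 1.64% of all genes, and the median difference was 0.96, against -0.03 over all genes. *Il9*, a mast cell and T cell growth factor made by Th9 cells, read 10.75 and 10.81 in TEM cells, against 3.47 and 3.68 in TCM cells (log2 fold change 7.20, SE 0.25, adjusted p = 7.23e-06). *Csf2*, the gene of GM-CSF, read 10.13 and 9.98 in TEM cells, against 3.86 and 4.98 in TCM cells (5.63, SE 0.46, adjusted p = 0.000491). *Ifng*, the macrophage-activating interferon-γ, read 10.22 and 10.06 in TEM cells, against 4.67 and 4.80 in TCM cells (5.41, SE 1.04, adjusted p = 0.0238). The TEM arrays lie far above the TCM arrays for all 3 genes, and the TCM arrays lie near the naïve ones, at 3.53 and 3.33 for *Il9*, 3.23 and 4.55 for *Csf2* and 4.14 and 4.49 for *Ifng*. The SE of *Ifng* is estimated over all 5 groups, while its SD was 0.11 in TEM and 0.10 in TCM cells. Its call ended without any single TEM, TCM or CD8+ TEM array (5.33 without TEM replicate 1). The call held in the fit of the 4 arrays compared and in that of the 6 CD4+ arrays.

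Cytokines of the type 2 response, which acts on eosinophils, mucus and antibody class, were higher in TEM cells too. *Il13* read 8.93 and 8.61 in TEM cells and 4.89 and 5.10 in TCM cells (3.78, SE 0.23, adjusted p = 0.00011), and *Il5* 5.96 and 5.29 against 3.53 and 3.44 (2.14, SE 0.21, adjusted p = 0.00125). *Il4*, the third member of that gene cluster, differed by 2.04 (adjusted p = 0.0468) and was chosen after its values were seen. It lost its call without any single array other than TCM replicate 1, with adjusted p up to 0.197 without TEM replicate 2, and differed by 1.33 without TCM replicate 2. *Il21*, which acts on germinal center B cells, read 6.17 and 6.77 in TEM cells and 2.60 and 2.85 in TCM cells (3.74, SE 0.28, adjusted p = 0.00033), which became 1.86 when its probe sets were averaged. *Penk* is counted among the 12, although it encodes the precursor of the enkephalin peptides and not a cytokine. It read 11.81 and 11.74 in TEM cells and 7.25 and 7.56 in TCM cells (4.37, SE 0.16, adjusted p = 7.23e-06), and its naïve arrays lay below both, at 4.25 and 4.25. *Il18* was called at 2.08 (adjusted p = 0.0295), but not without TEM replicate 2 (1.77, adjusted p = 0.153) nor without TEM replicate 1, TCM replicate 1 or either CD8+ TEM array.

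The remaining cytokine calls were chosen after their values were seen. *Ebi3*, a subunit shared by interleukins 27 and 35, differed by 1.34 (adjusted p = 0.0254), *Il24* by 1.21 (adjusted p = 0.0178) and *Tgfb1* by 1.13 (adjusted p = 0.0141). *Il12a*, the partner subunit of *Ebi3* in interleukin 35, was the only cytokine called lower, at 3.78 and 4.07 in TEM cells and 5.38 and 4.82 in TCM cells (-1.18, adjusted p = 0.0179). Each of these 4 calls ended without TEM replicate 1 (adjusted p = 0.129 for *Ebi3* and 0.108 for *Il12a*), and all but that of *Il12a* also without TEM replicate 2. *Ebi3* lost its call without any single TCM or CD8+ TEM array as well, and *Il24* without TCM replicate 1. With the mean of its probe sets *Tgfb1* differed by 0.36 (adjusted p = 0.296). Without TEM replicate 1, 6 of the 24 cytokine genes were called higher, without TEM replicate 2 also 6, without TCM replicate 1 8, and without TCM replicate 2 10.

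Of 12 chemokine genes, 5 were higher in TEM cells and none was lower, against 3.89% and 1.64% of all genes. *Ccl1*, the ligand of CCR8, read 11.59 and 11.23 in TEM cells, against 3.66 and 5.02 in TCM cells (7.07, SE 0.38, adjusted p = 5.92e-05). *Ccl3* (MIP-1α), a ligand of CCR1, read 9.68 and 9.42 in TEM cells, against 2.97 and 5.81 in TCM cells (5.15, SE 0.79, adjusted p = 0.00949). *Xcl1*, which draws XCR1+ dendritic cells, read 7.81 and 7.14 in TEM cells, against 3.96 and 4.36 in TCM cells (3.31, SE 0.32, adjusted p = 0.00102). The groups are well apart for all 3, although the TCM arrays of *Ccl3* differ widely from each other. *Cxcl10*, an interferon-inducible ligand of CXCR3, read 8.95 and 8.94 in TEM cells and 5.70 and 6.13 in TCM cells (3.03, SE 0.52, adjusted p = 0.0155). *Ccl5* (RANTES) read 9.97 and 9.81 in TEM cells and 8.14 and 6.63 in TCM cells (2.50, SE 0.41, adjusted p = 0.0128). Without TEM replicate 1 the adjusted p was 0.0611 for *Ccl3*, 0.0788 for *Cxcl10* and 0.0767 for *Ccl5*, and 2 of the 12 genes were called. *Cxcl10* also lost its call without TEM replicate 2 or TCM replicate 1, and *Ccl5* without TEM replicate 2.

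Granzymes are the serine proteases that cytotoxic granules deliver into target cells. Of 24 granule and death ligand genes, 8 were higher in TEM cells and 1 was lower, with a median difference of 0.37. The shares over all genes were 3.89% and 1.64%. *Gzma* had the largest difference of all genes, at 12.54 and 12.24 in TEM cells, against 3.99 and 4.18 in TCM cells (8.30, SE 0.87, adjusted p = 0.00163), and its TCM arrays lay below the naïve arrays, which averaged 5.64. The genes of the *Gzmb* cluster differed to very unequal degrees. *Gzmg* read 10.50 and 9.91 in TEM cells and 4.37 and 4.01 in TCM cells (6.01, SE 0.27, adjusted p = 2.04e-05), and *Gzmd* 8.23 and 7.99 against 2.48 and 2.99 (5.38, SE 0.34, adjusted p = 0.000135). *Gzmf* differed by 4.72 (adjusted p = 0.00022) and *Gzme* by 4.14 (adjusted p = 2.84e-05). *Gzmc* read 13.62 and 13.58 in TEM cells and 10.22 and 10.11 in TCM cells (3.43, SE 0.39, adjusted p = 0.00227). *Gzmb* differed least, at 13.06 and 13.07 in TEM cells and 11.86 and 11.84 in TCM cells (1.21, SE 0.23, adjusted p = 0.0225). For *Gzmb* and *Gzmc* the TCM arrays lay far above the naïve ones, at 4.04 and 3.29 for *Gzmb* and 3.90 and 4.28 for *Gzmc*. These genes are near-identical in sequence in places, so their probe sets may share signal. The *Gzmb* call ended without any single TEM, TCM or CD8+ TEM array (adjusted p up to 0.103).

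Most other granule genes did not pass the test. *Prf1*, the pore-forming perforin, read 6.17 and 6.04 in TEM cells and 6.67 and 5.83 in TCM cells (-0.14, SE 0.27, adjusted p = 0.818), with overlapping arrays. Its sign turned with the mean of its probe sets (0.07) and without TCM replicate 1 (0.27). *Nkg7*, a granule membrane protein, read 11.94 and 11.74 in TEM cells and 12.06 and 11.89 in TCM cells (-0.14, adjusted p = 0.78). The death ligand gene *Tnfsf10* (TRAIL) was higher in TEM cells by 0.95 (adjusted p = 0.0267), but not without TEM replicate 1 (0.89, adjusted p = 0.137), TEM replicate 2, TCM replicate 2 or either naïve CD4+ array. The 1 gene called lower, *Serpinb6b*, a serpin, was chosen after its values were seen. It read 11.43 and 11.45 in TEM cells and 12.08 and 12.12 in TCM cells (-0.66, adjusted p = 0.0492), and its call ended without any single array other than the naïve CD8+ ones. The list had 6 to 9 genes called higher when single arrays were left out.

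**Figure D2:**
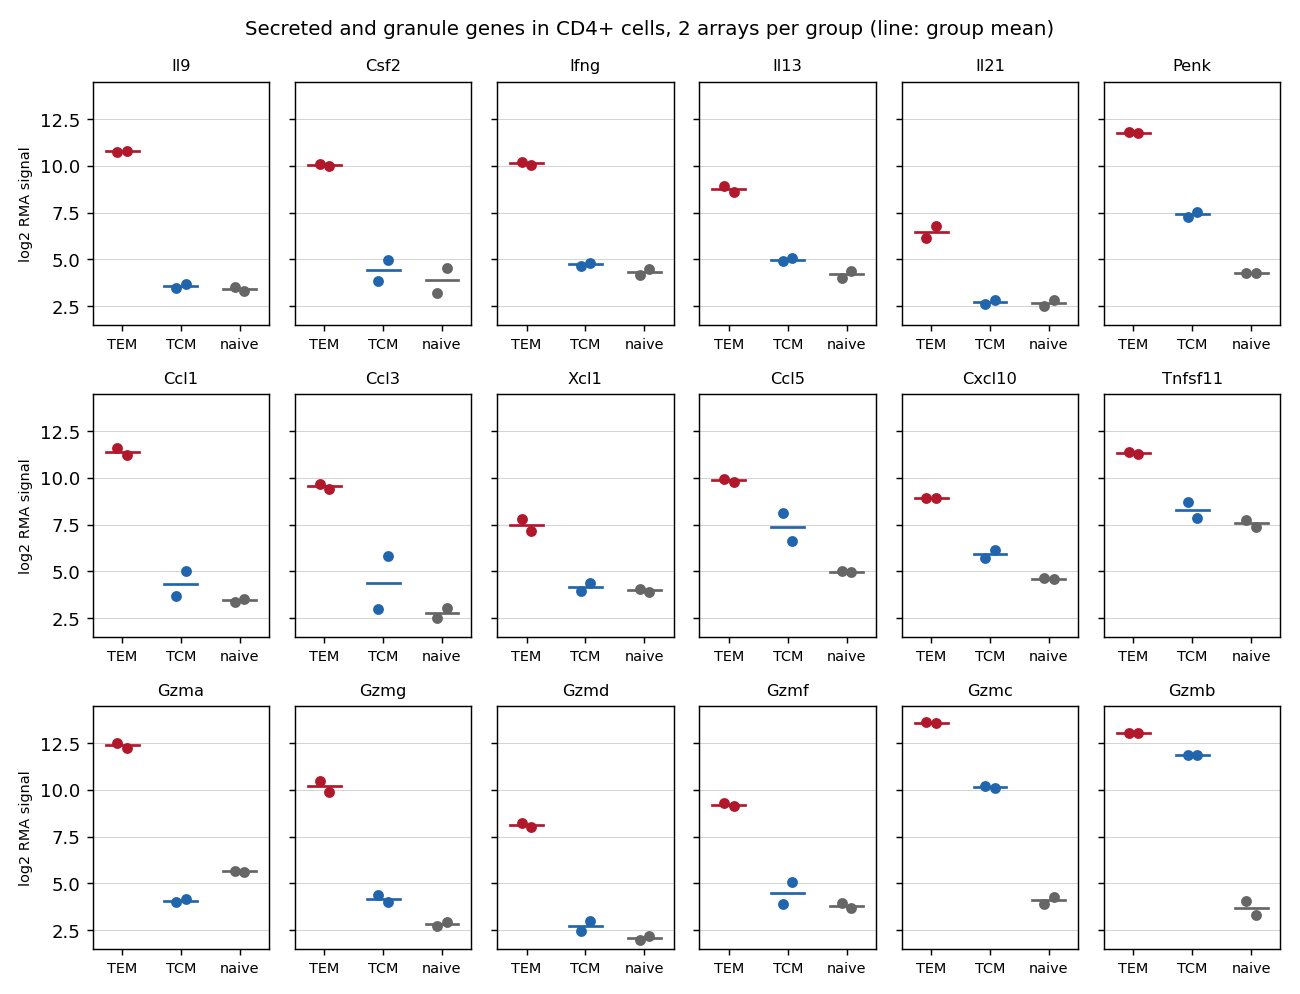
Log2 RMA signal (y axis) of 12 secreted or membrane-bound signal genes and 6 granzyme genes in CD4+ TEM, TCM and naïve cells. Points are the 2 arrays of a group and lines the group means, and in each panel both TEM points lie above both TCM points, by 8.30 for *Gzma* and 1.21 for *Gzmb* between the means.

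Inhibitory receptors restrain activated T cells. Of the 15 genes measured in their list, 7 were higher in TEM cells and 1 was lower. Among the 7 are *Cd200* and *Pdcd1lg2*, which encode ligands and not receptors. The shares over all genes were 3.89% and 1.64%. The median difference of the 15 was 1.25. *Cd244a* (2B4), a SLAM family receptor, read 9.03 and 9.33 in TEM cells, against 2.89 and 2.75 in TCM cells (6.36, SE 0.27, adjusted p = 1.37e-05). *Cd200*, the ligand of an inhibitory receptor on myeloid cells, read 10.38 and 10.27 in TEM cells, against 6.63 and 6.02 in TCM cells (3.99, SE 0.22, adjusted p = 6.3e-05). *Havcr2* (TIM-3) read 8.36 and 7.95 in TEM cells, against 4.52 and 4.38 in TCM cells (3.71, SE 0.25, adjusted p = 0.000186). The order of the groups differs between these genes: naïve cells lay near TCM cells for *Cd244a* (3.70 and 3.26) and *Havcr2* (3.75 and 4.33), and near TEM cells for *Cd200* (9.30 and 9.19). *Cd160*, a receptor shared with NK cells, differed by 3.17 (SE 0.18, adjusted p = 6.78e-05) and *Lag3*, a receptor for MHC class II, by 2.19 (SE 0.15, adjusted p = 0.000182). *Btla*, which dampens receptor signalling after binding HVEM, was lower, at 7.37 and 7.16 in TEM cells and 8.15 and 8.18 in TCM cells (-0.90, adjusted p = 0.0189). With the mean of its probe sets *Cd244a* differed by 3.90, and its other probe set was dim. The calls of *Cd5* (0.76, adjusted p = 0.0426), a brake on receptor signalling, of *Pdcd1lg2* (1.41, adjusted p = 0.0311), a ligand of PD-1, and of *Btla* ended without either TEM array or TCM replicate 2, with adjusted p up to 0.189, 0.147 and 0.11. *Cd5* and *Pdcd1lg2* lost theirs without TCM replicate 1 or either CD8+ TEM array as well, *Cd5* without either naïve CD4+ array and *Pdcd1lg2* without either naïve CD8+ array.

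Chemokine receptors of tissue and inflammatory homing were among the genes higher in TEM cells. *Cxcr6*, the receptor for CXCL16 on tissue-resident cells, read 10.58 and 10.53 in TEM cells, against 6.18 and 4.99 in TCM cells (4.98, SE 0.45, adjusted p = 0.00074). *Ccr1*, a receptor for CCL3 and CCL5, read 7.17 and 7.59 in TEM cells, against 2.83 and 3.69 in TCM cells (4.12, SE 0.31, adjusted p = 0.00033). *Ccr8*, the receptor for CCL1, read 5.83 and 5.93 in TEM cells, against 3.29 and 3.11 in TCM cells (2.68, SE 0.18, adjusted p = 0.000186). The groups do not overlap for any of the 3, and they and *S1pr1* were the 4 genes called among 19 chemokine receptor and homing genes. Of all genes, 5.52% were called. *Ccr2*, a receptor of inflammatory homing, read 10.23 and 10.05 in TEM cells and 11.49 and 11.15 in TCM cells (-1.18, SE 0.38, adjusted p = 0.128). It passed the test as lower in TEM cells without either naïve CD8+ array (adjusted p = 0.00974), in the fit of the 6 CD4+ arrays (adjusted p = 0.0322) and with the mean of its probe sets (-0.86, adjusted p = 0.012). Among 19 integrin and adhesion genes, *Itga1*, a collagen-binding integrin chain, was higher at 5.75 and 8.19 in TEM cells and 3.65 and 3.50 in TCM cells (3.39, SE 0.65, adjusted p = 0.0226), or 2.17 without TEM replicate 2, and it lost the call without either TCM array (adjusted p up to 0.0692). *Itgb3* (-1.04, adjusted p = 0.0236) and *Cd2* (-0.83, adjusted p = 0.0389) were lower, and both calls ended without any single TEM, TCM or CD8+ TEM array (adjusted p up to 0.119 and 0.179), that of *Cd2* also without either naïve CD4+ array. *Itgae* (CD103), which binds E-cadherin of epithelium, read 10.25 and 10.57 in TEM cells, but 5.31 and 8.62 in TCM cells (3.45, SE 0.85, adjusted p = 0.0579). Without TCM replicate 1 its difference was 1.79 and without TCM replicate 2 5.11, so its size depends on which TCM array is used.

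Surface genes listed as marks of effector or central memory cells were called in both directions, against 3.89% of all genes higher and 1.64% lower. Of 16 effector memory surface genes, 2 were higher in TEM cells, *Cxcr6* and *Icos*. *Icos*, a costimulatory receptor, read 11.17 and 11.23 in TEM cells and 9.46 and 9.87 in TCM cells (1.53, SE 0.18, adjusted p = 0.00253). *Il2rb*, *Tnfrsf4* and *Tnfrsf9*, which are induced on activation, had TEM and TCM means within 0.49 log2 units of each other and far above naïve cells: *Tnfrsf9* (4-1BB), for example, read 12.72 and 12.62 in TEM, 12.57 and 12.62 in TCM and 8.32 and 8.37 in naïve cells. Of 16 resting and central memory surface genes, 4 were lower in TEM cells and 2 were higher (2 and 1 in the fit of the 4 arrays compared). The 2 higher ones were *P2rx7*, an ATP-gated channel, at 9.72 and 9.81 in TEM cells and 5.01 and 5.03 in TCM cells (4.74, SE 0.15, adjusted p = 7.23e-06), which became 2.69 when its probe sets were averaged, and *Klrd1* (CD94), the partner of NKG2 receptors, at 8.15 and 8.59 against 5.86 and 4.46 (3.21, SE 0.40, adjusted p = 0.00351). For both, on the probe sets used, it was the TCM cells that stood apart from naïve cells the most, since naïve cells read 8.58 and 8.62 for *P2rx7* and 10.25 and 10.21 for *Klrd1*. Another probe set of *P2rx7* read 8.29 and 8.52 in TEM, 6.98 and 3.66 in TCM and 7.27 and 6.30 in naïve cells. On that one only TCM replicate 2 lay below both naïve arrays.

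**Figure D3:**
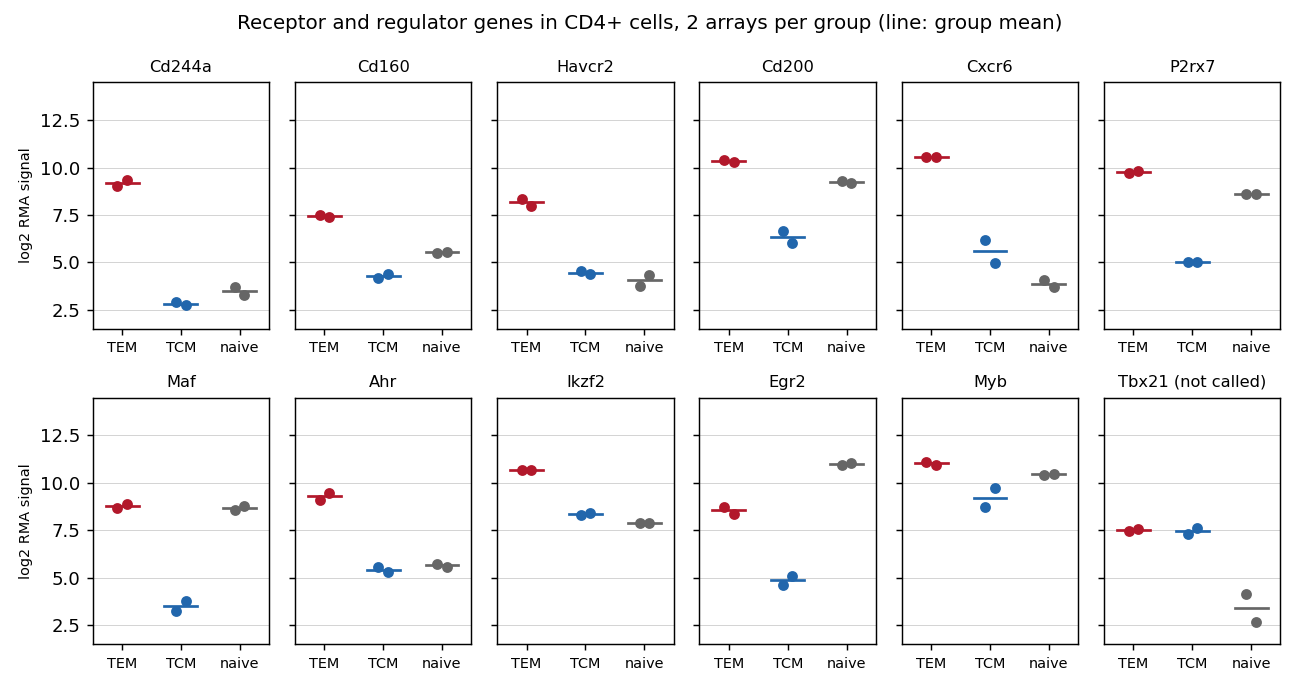
Log2 RMA signal (y axis) of 6 receptor or surface genes and 6 transcription factor genes in CD4+ TEM, TCM and naïve cells, with points for the 2 arrays of a group and lines for group means. TEM points lie above TCM points in every panel except that of *Tbx21*, which was not called, and the naïve points lie beside the TEM points for *Maf*.

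Of 28 regulators of effector and helper lineages, 7 were higher in TEM cells and 1 was lower, against 3.89% and 1.64% of all genes. *Maf*, a factor that drives interleukin 4, 10 and 21 genes, read 8.69 and 8.86 in TEM cells, against 3.24 and 3.74 in TCM cells (5.28, SE 0.39, adjusted p = 0.000297). Naïve cells read 8.58 and 8.75, so the TCM cells alone were low. With the mean of its probe sets, several of them dim, *Maf* differed by 2.63. *Hic1*, a repressor of retinoid-responsive intestinal T cells, read 8.87 and 8.73 in TEM cells and 5.66 and 5.92 in TCM cells (3.01, SE 0.24, adjusted p = 0.000427). *Ikzf2* (Helios) read 10.70 and 10.69 in TEM cells and 8.31 and 8.41 in TCM cells (2.33, SE 0.14, adjusted p = 0.00011). *Zbtb32* (2.12, adjusted p = 0.00251) and *Batf3* (1.92, adjusted p = 0.00394) were higher as well. *Zeb2*, a factor of terminal effector cells, differed by 2.47 (adjusted p = 0.00664) on its brightest probe set, which read 5.16 and 5.21 in TEM cells, but by 0.51 (adjusted p = 0.1) when its probe sets were averaged, and *Zbtb32* by 0.94 in that way.

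The T-box factors, which direct cytotoxic and type 1 programmes, were not higher in TEM cells. *Eomes* was lower, at 7.94 and 8.70 in TEM cells and 10.58 and 10.04 in TCM cells (-1.99, SE 0.32, adjusted p = 0.0119), with naïve cells below both at 5.80 and 5.14. Without TEM replicate 1 it differed by -1.61 (adjusted p = 0.0688). *Tbx21* (T-bet) read 7.47 and 7.56 in TEM cells and 7.29 and 7.61 in TCM cells (0.06, SE 0.40, adjusted p = 0.95), with overlapping arrays and a sign that turned with quantile normalization (-0.07) and without TCM replicate 1 (-0.10). *Prdm1* (Blimp-1) differed by 0.50 (SE 0.25, adjusted p = 0.305), and *Gata3*, the type 2 regulator, by -0.86 (SE 0.27, adjusted p = 0.116). *Irf4*, which scales with receptor signal strength, read 12.02 and 12.06 in TEM cells and 10.58 and 10.37 in TCM cells (1.57, SE 0.69, adjusted p = 0.253). Without either naïve CD8+ array *Irf4* passed the test (adjusted p = 0.0023), as it did in the fit of the 4 arrays compared (adjusted p = 0.0397). Of 22 immediate early genes, *Egr2* and *Egr3*, targets of receptor and NFAT signals, were the 2 called, against 5.52% of all genes. *Egr2* read 8.74 and 8.37 in TEM cells and 4.60 and 5.10 in TCM cells (3.71, SE 0.51, adjusted p = 0.00563), and *Egr3* 9.81 and 9.53 against 6.89 and 6.64 (2.90, SE 0.30, adjusted p = 0.00152), which became 1.27 when its 2 probe sets were averaged, of which the dimmer one differed by -0.36. On the probe sets used, naïve cells lay above both groups, at 10.97 and 11.05 for *Egr2* and 10.28 and 10.09 for *Egr3*. *Fos* read 5.08 and 4.29 in TEM cells, 6.92 and 8.33 in TCM cells and 12.88 and 12.86 in naïve cells. It was not called (TEM minus TCM -2.94, adjusted p = 0.345), but passed the test in the fit of the 6 CD4+ arrays (adjusted p = 0.0458).

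*Ahr* encodes the aryl hydrocarbon receptor, a sensor of small molecules in helper T cells that binds DNA at a GCGTG core and induces *Ahrr*, its repressor, and *Cyp1b1*, an oxidase. *Ahr* read 9.10 and 9.48 in TEM cells, against 5.54 and 5.31 in TCM cells (3.86, SE 0.33, adjusted p = 0.000554), which became 2.13 when its probe sets were averaged. *Ahrr* read 8.78 and 9.07 in TEM cells, against 3.87 and 5.43 in TCM cells (4.27, SE 0.46, adjusted p = 0.00191), a call that ended in the fit of the 4 arrays compared. *Cyp1b1* read 8.76 and 8.98 in TEM cells, against 5.85 and 4.84 in TCM cells (3.53, SE 0.30, adjusted p = 0.000568), which became 2.31 when its probe sets were averaged. The last 2 genes were chosen after their values were seen. So were 2 further known targets that were not called, *Cyp1a1* (1.27, adjusted p = 0.124, and 1.83 without TCM replicate 2) and *Tiparp* (0.53, adjusted p = 0.676). The 2 dimmer probe sets of *Tiparp* differed by 1.12 and 1.44, and no alternative fit called it. The promoters of *Ahrr* and *Cyp1b1* are shown because they carry the core, with *Il9* and *Cd244a*, which carry TGANTCA, a site of AP-1 factors, and are among the genes with the largest differences. Each sequence runs 5′ to 3′ on the strand of the gene, from 250 bases before to 50 bases after its start (RefSeq, GRCm38.p6), with matches on either strand in capitals.
Ahrr, chr13:74292282-74292581, minus strand, GCGTG: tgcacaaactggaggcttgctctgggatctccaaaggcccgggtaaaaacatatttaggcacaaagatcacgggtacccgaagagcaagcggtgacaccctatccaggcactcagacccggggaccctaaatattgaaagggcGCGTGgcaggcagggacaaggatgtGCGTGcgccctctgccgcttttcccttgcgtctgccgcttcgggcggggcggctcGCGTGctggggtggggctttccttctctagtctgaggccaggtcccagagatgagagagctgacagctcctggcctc
Cyp1b1, chr17:79715012-79715311, minus strand, GCGTG, here read on the other strand: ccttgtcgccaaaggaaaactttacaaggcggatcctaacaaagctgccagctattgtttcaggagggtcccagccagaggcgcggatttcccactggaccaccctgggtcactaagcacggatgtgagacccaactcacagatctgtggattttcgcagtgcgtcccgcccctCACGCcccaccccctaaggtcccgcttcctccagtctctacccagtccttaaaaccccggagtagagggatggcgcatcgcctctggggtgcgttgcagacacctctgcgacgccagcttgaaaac
Il9, chr13:56482208-56482507, minus strand, TGANTCA: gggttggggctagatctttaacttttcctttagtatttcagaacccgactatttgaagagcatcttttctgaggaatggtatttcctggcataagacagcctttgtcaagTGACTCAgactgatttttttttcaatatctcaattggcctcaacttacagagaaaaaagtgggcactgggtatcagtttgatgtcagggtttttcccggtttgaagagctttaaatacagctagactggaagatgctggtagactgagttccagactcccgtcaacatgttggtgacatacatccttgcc
Cd244a, chr1:171558943-171559242, plus strand, TGANTCA: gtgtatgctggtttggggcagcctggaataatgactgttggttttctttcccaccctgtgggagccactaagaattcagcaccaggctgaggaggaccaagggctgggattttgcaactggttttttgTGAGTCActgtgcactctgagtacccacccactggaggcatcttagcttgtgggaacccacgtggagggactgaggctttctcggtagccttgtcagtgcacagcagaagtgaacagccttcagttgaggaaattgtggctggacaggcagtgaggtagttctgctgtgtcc

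*Ahrr* has 3 GCGTG matches, which begin 107, 82 and 27 bases before the start, and *Cyp1b1* has 1, at 76 bases. The TGANTCA matches of *Il9* and *Cd244a* begin 140 and 122 bases before the start. Of 32851 promoter windows of this length, 32.4% hold GCGTG and 7.8% TGANTCA on either strand, and of the 14452 tested genes with a window 47.8% and 7.5% do. Of the 20 genes with the largest rises named by rule, 17 have a window in the table, of which 2 hold GCGTG and 3 hold TGANTCA (*Arfgef3*, *Cd244a* and *Il9*), and of the 18 among the 20 largest falls, 7 hold GCGTG and 2 hold TGANTCA. These are 11.8% and 17.6% of the rises and 38.9% and 11.1% of the falls, of too few genes to place either set against the tested genes. Of the genes called higher 54.4% hold GCGTG and 10.1% TGANTCA, and of those called lower 49.6% and 6.4%. A match describes the letters and says nothing of binding.

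Several genes of quiescence and recirculation were lower in TEM cells. *Klf2*, the factor that maintains *S1pr1* in resting T cells, read 5.92 and 6.74 in TEM cells, against 8.40 and 8.98 in TCM cells (-2.36, SE 0.29, adjusted p = 0.00321). *Klf3*, a repressor of the same family, read 7.99 and 8.47 in TEM cells, against 10.41 and 10.76 in TCM cells (-2.36, SE 0.23, adjusted p = 0.0012). *S1pr1*, the receptor that lets T cells leave lymph nodes, read 5.80 and 5.22 in TEM cells, against 7.80 and 7.73 in TCM cells (-2.26, SE 0.19, adjusted p = 0.000616). For each of the 3 the TCM arrays lay between the TEM and the naïve arrays, which read 9.55 and 9.67, 11.51 and 11.42, and 9.14 and 9.21. *Bach2*, which holds back effector genes, read 10.51 and 10.82 in TEM cells and 11.98 and 11.96 in TCM cells (-1.30, SE 0.15, adjusted p = 0.00269), level with naïve cells, which averaged 12.07. Of 17 memory and quiescence regulators, *Klf2*, *Klf3* and *Bach2* were lower and *Myb* and *Id3* were higher, beside 1.64% and 3.89% of all genes. In the fit of the 4 arrays compared, 1 of the 17 was lower and 0 were higher. *Myb*, which sustains self-renewing memory cells, read 11.11 and 10.96 in TEM cells and 8.70 and 9.75 in TCM cells (1.81, SE 0.30, adjusted p = 0.0125), and *Id3*, an inhibitor of E proteins, differed by 0.96 (adjusted p = 0.0155). Without TEM replicate 1 *Myb* had an adjusted p of 0.0768, and without TEM replicate 2 *Id3* one of 0.0943. *Myb* lost its call without TEM replicate 2 too, and *Id3* without TCM replicate 2. *Lef1* (-0.53, adjusted p = 0.0751), *Foxp1* (-0.67, adjusted p = 0.0611) and *Satb1* (-0.56, adjusted p = 0.097), factors of naïve and resting T cells, were not called, but each passed the test in some alternatives, all 3 with the mean of their probe sets (-0.92, -0.83 and -0.75) and with an intensity trend, and *Foxp1* without either naïve CD8+ array (adjusted p = 0.0384).

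Both interleukin 6 receptor chains were lower in TEM cells. *Il6ra*, the ligand-binding chain, read 3.33 and 3.24 in TEM cells, against 7.23 and 6.87 in TCM cells and 10.54 and 10.48 in naïve cells (TEM minus TCM -3.76, SE 0.17, adjusted p = 2.45e-05), which became -1.96 when its 2 probe sets were averaged. *Il6st* (gp130), the signalling chain, read 8.05 and 8.33 in TEM cells, against 9.34 and 9.76 in TCM cells (-1.36, SE 0.19, adjusted p = 0.00638). *Slamf6* (Ly108), a marker of stem-like memory cells, read 6.77 and 6.13 in TEM cells, against 8.23 and 8.37 in TCM cells (-1.85, SE 0.28, adjusted p = 0.0088), and missed the threshold without TEM replicate 2 (-1.53, adjusted p = 0.0506). These 3 genes and *S1pr1* are the 4 resting and central memory surface genes called lower. Receptors of lymphoid homing and homeostasis did not pass the test: *Ccr7* read 10.25 and 10.38 in TEM cells and 10.87 and 10.98 in TCM cells (-0.61, SE 0.26, adjusted p = 0.229), and *Il7r* 11.56 and 11.57 against 10.99 and 11.23 (0.45, SE 0.14, adjusted p = 0.108). The arrays of the groups do not overlap for either gene, and *Ccr7* was called without either naïve CD8+ array (adjusted p = 0.0453) and *Il7r* with an intensity trend (adjusted p = 0.0156).

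Cytokine receptors changed in both directions, with 6 of 24 higher and 4 lower, against 3.89% and 1.64% of all genes. The interleukin 1 receptors *Il1r2*, a decoy, and *Il1r1*, the signalling chain, were higher: *Il1r2* read 9.88 and 9.72 in TEM cells and 7.93 and 7.59 in TCM cells (2.04, SE 0.18, adjusted p = 0.000661), and *Il1r1* differed by 2.54 (adjusted p = 0.00392), which became 1.19 when its probe sets were averaged. The 2 chains of the interleukin 12 receptor, *Il12rb1* (1.90, adjusted p = 0.0224) and *Il12rb2* (1.15, adjusted p = 0.0196), were higher, and both calls ended without either TEM array or TCM replicate 2 (adjusted p up to 0.104 and 0.115), that of *Il12rb2* also without TCM replicate 1. *Tgfbr3*, a coreceptor for TGF-β, differed by 1.33 (SE 0.16, adjusted p = 0.0034), which became 0.88 when its probe sets were averaged. *Il18rap* (0.81, adjusted p = 0.0452) and *Ifngr1* (-0.80, adjusted p = 0.0164) were chosen after their values were seen. *Il17ra* was lower, at 9.05 and 9.08 in TEM cells and 10.34 and 9.96 in TCM cells (-1.08, adjusted p = 0.0115). Without TEM replicate 1 the adjusted p was 0.199 for *Il18rap*, 0.102 for *Ifngr1* and 0.0691 for *Il17ra*. *Il17ra* and *Il18rap* also lost their calls without TEM replicate 2, *Ifngr1* without TCM replicate 1, and *Il18rap* without TCM replicate 2 or any naïve CD4+ or CD8+ TEM array. With the mean of its probe sets *Il18rap* differed by 0.41. *Il2ra*, the high-affinity interleukin 2 receptor chain, differed by 0.48 (SE 0.25, adjusted p = 0.333), or 0.55 (adjusted p = 0.0443) with the mean of its probe sets.

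**Figure D4:**
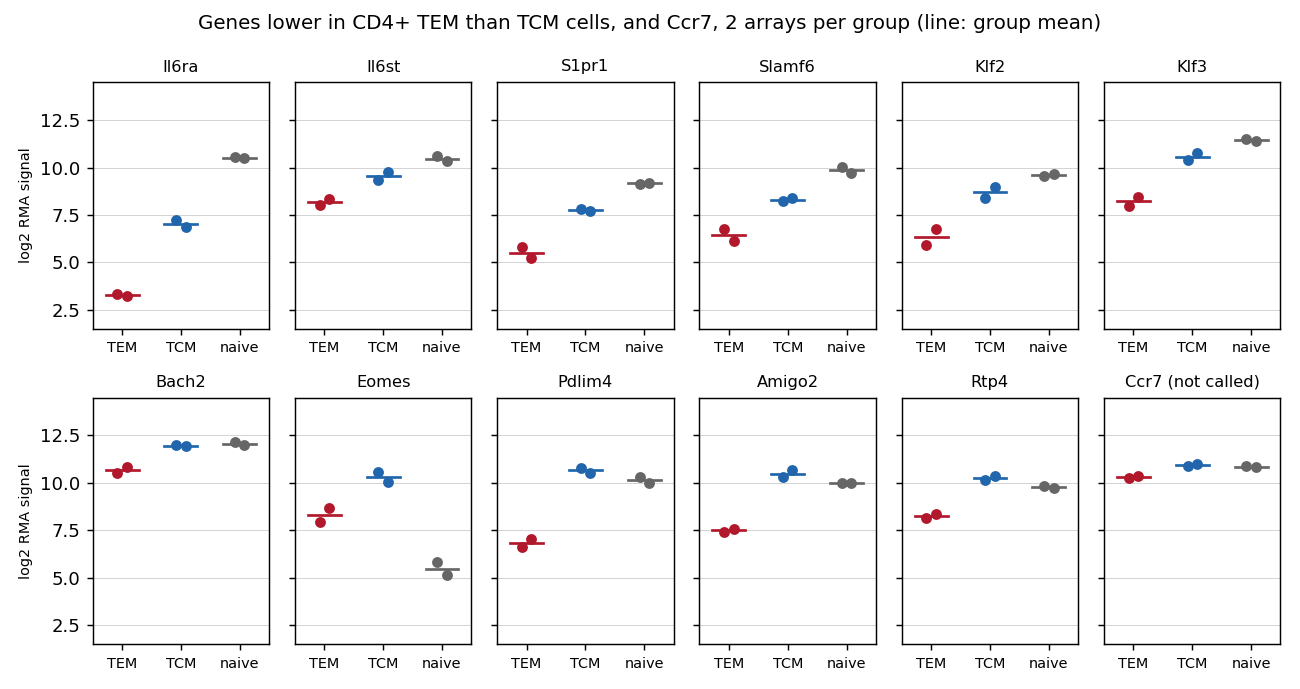
Log2 RMA signal (y axis) of 11 genes called lower in CD4+ TEM than TCM cells, and of *Ccr7*, in TEM, TCM and naïve cells (points: the 2 arrays of a group, lines: group means). The TCM points of *Il6ra* lie midway between TEM and naïve points, those of *Bach2* level with the naïve points, and those of *Eomes* above all others.

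The largest falls held genes of varied roles. *Pdlim4*, an actin-linked PDZ and LIM protein, read 6.61 and 7.06 in TEM cells, against 10.78 and 10.53 in TCM cells (-3.82, SE 0.31, adjusted p = 0.000462), and naïve cells read 10.31 and 9.99. *Atp1b1*, a subunit of the sodium pump, read 4.97 and 5.92 in TEM cells, against 8.90 and 9.19 in TCM cells (-3.60, SE 0.29, adjusted p = 0.000427), which became -1.61 when its probe sets were averaged. *Amigo2*, an adhesion molecule, read 7.40 and 7.58 in TEM cells, against 10.29 and 10.66 in TCM cells (-2.98, SE 0.25, adjusted p = 0.000543), which became -1.82 when its probe sets were averaged. For *Pdlim4* and *Amigo2* the TCM cells were close to naïve cells and the TEM cells apart. Both subunits of soluble guanylate cyclase, the nitric oxide receptor, were among the 20 largest falls: *Gucy1a1* read 5.46 and 6.05 in TEM cells and 8.23 and 8.68 in TCM cells (-2.70, SE 0.25, adjusted p = 0.00081), which became -1.26 when its probe sets were averaged, and *Gucy1b1* differed by -2.40 (adjusted p = 0.0192), but not past the threshold without TEM replicate 2 (-2.03, adjusted p = 0.11) or TCM replicate 2. The other 14 were *Kcnip3*, *She*, *F13a1*, *Fry*, *Rph3al*, *Lrrc6*, *Tlcd4*, *Bambi-ps1*, *Drc1*, *Slfn3*, *Olfml3*, *Elovl7*, *Fgfr3* and *B3galnt1*, and with *Il6ra* the 20 ranged from -3.82 to -2.39. With the mean of their probe sets *Elovl7* differed by -1.0 (adjusted p = 0.0808), *Fry* by -1.04, *Tlcd4* by -0.83, *She* by -1.81, *Fgfr3* by -1.34, *Rph3al* by -1.61 and *Lrrc6* by -1.87, and *Lrrc6* by -0.88 with only probe sets that match a single transcript, which ended its call (adjusted p = 0.0865). *F13a1* lost its call without TEM replicate 1, *She* without TEM replicate 2, *Olfml3* without either TEM array or TCM replicate 2 and *Elovl7* without either TEM array or TCM replicate 1. *Rph3al* (adjusted p = 0.0409) lost its call without any single array other than the CD8+ TEM ones, and *Slfn3* (adjusted p = 0.048) without any other than TCM replicate 2 and the naïve CD4+ ones.

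Beside the genes of the lists, the 20 largest rises held genes better known from other tissues. *Cntn1*, a neural adhesion molecule, read 10.40 and 10.50 in TEM cells, against 4.12 and 3.65 in TCM cells (6.57, SE 0.24, adjusted p = 7.23e-06), which became 3.74 when its probe sets were averaged. *Gad2*, the enzyme that makes the neurotransmitter GABA, read 8.95 and 8.96 in TEM cells, against 3.55 and 3.78 in TCM cells (5.29, SE 0.15, adjusted p = 7.23e-06), which became 2.96 when its probe sets were averaged. *Vegfc*, a growth factor of lymphatic vessels, read 8.42 and 7.89 in TEM cells, against 3.17 and 3.15 in TCM cells (5.0, SE 0.19, adjusted p = 8.43e-06). For these 3 the TCM arrays lie within 2 log2 units of the naïve arrays. *Pdpn* (podoplanin), a mucin-like glycoprotein that lymphatic vessels and some inflammatory T cells carry, read 8.12 and 8.14 in TEM cells and 2.87 and 3.13 in TCM cells (5.13, SE 0.19, adjusted p = 8.43e-06). *Vcam1*, an adhesion molecule best known from endothelium, read 8.20 and 8.78 in TEM cells and 3.19 and 3.73 in TCM cells (5.03, SE 0.88, adjusted p = 0.0164), which became 2.20 when its probe sets were averaged, and lost its call without either TEM array or TCM replicate 1 (adjusted p up to 0.094). *Capsl* (5.45), *Csgalnact1* (5.23), *Ermn* (5.20) and *Arfgef3* (5.09) complete the rises, all with adjusted p of 4.53e-05 or below.

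Cholesterol synthesis genes differed in 1 direction, mostly by small amounts. All 17 measured had a positive difference, with a median of 0.54, and 6 were called higher, against 3.89% of all genes. *Lss*, lanosterol synthase, read 9.78 and 9.65 in TEM cells and 8.16 and 7.28 in TCM cells (2.0, SE 0.27, adjusted p = 0.00546). *Fdps* differed by 1.29 (adjusted p = 0.00829), but by 0.54 (adjusted p = 0.137) with the mean of its 2 probe sets, of which the other was dim. *Hsd17b7* (1.09, adjusted p = 0.00825), *Nsdhl* (1.01, adjusted p = 0.00566), *Sqle* (0.88, adjusted p = 0.0172) and *Cyp51* (0.61, adjusted p = 0.0338), all enzymes of the later steps, were the others, and *Cyp51* differed by 1.25 when its probe sets were averaged. When single arrays were left out, 3 to 6 were called, and 0 in the fit of the 4 arrays compared. *Cyp51* lost its call without any single CD4+ or CD8+ TEM array, *Sqle* without TEM replicate 1 or TCM replicate 2, *Fdps* without TEM replicate 1 and *Hsd17b7* without TEM replicate 2.

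Of 25 interferon-stimulated genes, 4 were lower in TEM cells and 0 were higher, against 1.64% and 3.89% of all genes. The median difference was -0.25, and 1 gene was called lower in the fit of the 4 arrays compared. *Rtp4*, a chaperone of receptors, read 8.13 and 8.36 in TEM cells, against 10.13 and 10.35 in TCM cells (-2.0, SE 0.21, adjusted p = 0.00161). *Ifit1*, which binds viral RNA, read 4.34 and 4.46 in TEM cells, against 6.72 and 5.87 in TCM cells (-1.89, SE 0.31, adjusted p = 0.0119). *Usp18* (-1.41, adjusted p = 0.00755), a brake on interferon signalling, and *Oasl2* (-1.38, adjusted p = 0.0483) were the other 2. Only *Rtp4* kept its call when any single array was left out: without TEM replicate 1 the adjusted p was 0.0735 for *Ifit1*, 0.0552 for *Usp18* and 0.152 for *Oasl2*, which then differed by -0.87. *Ifit1* lost its call without TEM replicate 2 too, and *Oasl2* without any single array other than that one. *Cxcl10*, an interferon-inducible gene of the chemokine list, ran the other way.

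**Figure D5:**
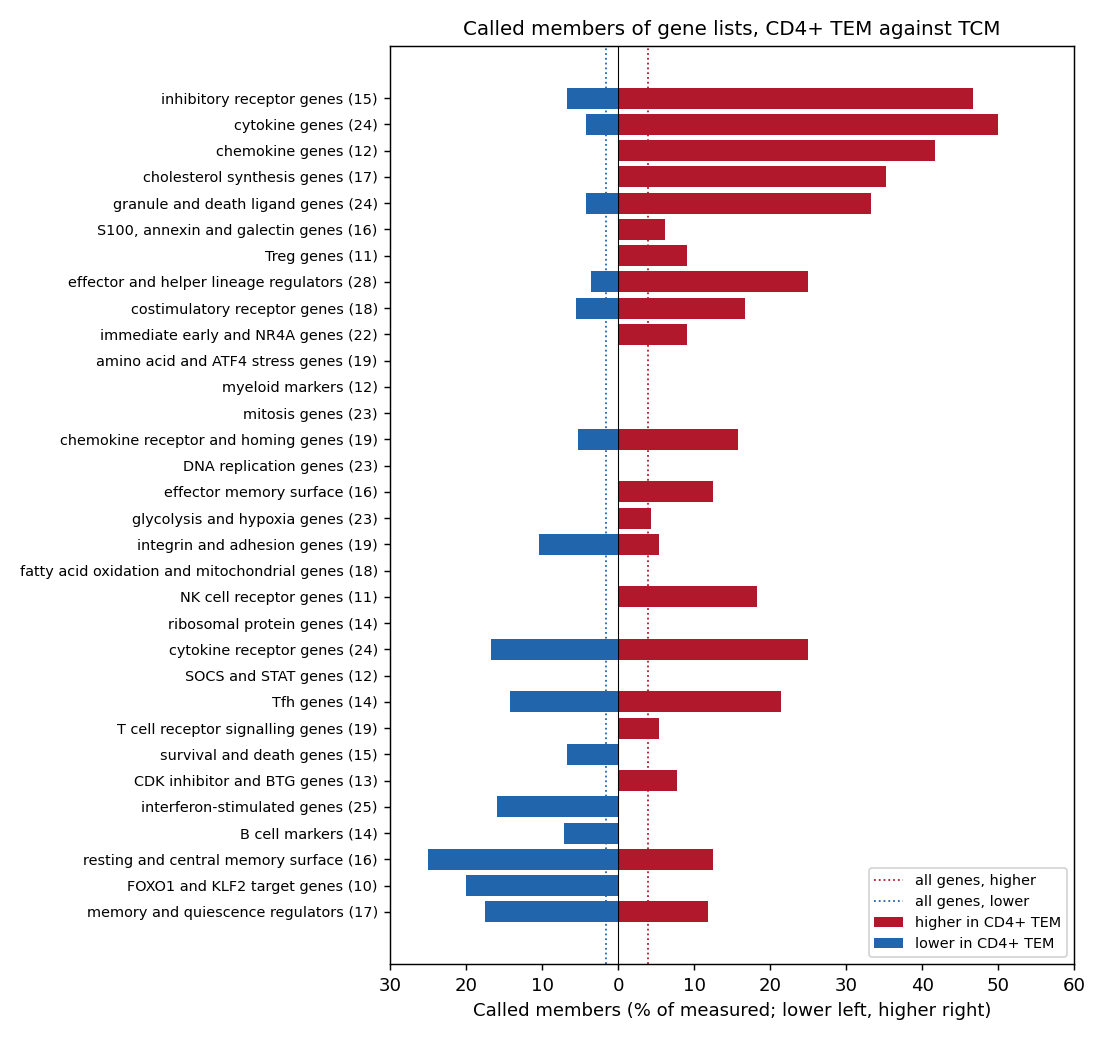
Share of measured members called higher (red, to the right) and lower (blue, to the left) in CD4+ TEM than TCM cells (x axis, %) for the lists with at least 10 measured genes, ordered by median difference, with the number measured in parentheses. Dotted lines mark the shares over all 18193 genes, 3.89% higher and 1.64% lower. The cytokine, inhibitory receptor and chemokine lists have 12 of 24, 7 of 15 and 5 of 12 members called higher. *Penk* is counted in the first, and the ligand genes *Cd200* and *Pdcd1lg2* in the second.

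Apart from the cholesterol synthesis genes, lists of proliferation and metabolism held 0 or 1 call, as did the other lists of this paragraph. For lists of this size that is near the 5.52% called of all genes. None of 23 DNA replication, 23 mitosis, 18 fatty acid oxidation and mitochondrial, 19 amino acid and ATF4 stress, 14 ribosomal protein, 12 SOCS and STAT and 8 GIMAP genes was called by limma, and 1, 3, 1, 1, 0, 2 and 1 of them had an unadjusted p under 0.05. The medians of these lists ran from -0.20 to 0.14, and all 8 GIMAP differences were negative, from -0.44 to -0.08. *Mki67*, a marker of dividing cells, read 7.37 and 7.24 in TEM cells and 8.44 and 7.78 in TCM cells (-0.81, SE 0.25, adjusted p = 0.114). Without TCM replicate 2 it differed by -1.14. Of 23 glycolysis and hypoxia genes only *Car9*, a hypoxia-induced carbonic anhydrase, was called (1.46, adjusted p = 0.0274), and not without TEM replicate 1 (1.29, adjusted p = 0.147), TEM replicate 2, TCM replicate 1 or either naïve CD4+ array. Of 13 CDK inhibitor and BTG genes only *Cdkn2a* was called, at 6.28 and 5.95 in TEM cells and 4.62 and 4.35 in TCM cells (1.63, SE 0.18, adjusted p = 0.00228). Of 15 survival and death genes only *Bcl2l11* (BIM), a killer of activated T cells, was called, at 10.22 and 10.21 in TEM cells and 11.15 and 11.54 in TCM cells (-1.13, SE 0.19, adjusted p = 0.0128), and not without either TEM array (adjusted p up to 0.0707). *Anxa3* (2.13, adjusted p = 0.00683) was the 1 call among 16 S100, annexin and galectin genes.

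Costimulatory and follicular helper lists gave few further calls, where 5.52% of all genes were called. Beside *Icos* and *Slamf6*, the costimulatory list (18 genes) held *Tnfsf11* (RANKL), which drives osteoclasts, at 11.37 and 11.27 in TEM cells and 8.71 and 7.85 in TCM cells (3.03, SE 0.41, adjusted p = 0.00513), and *Tnfsf14* (LIGHT), a ligand of HVEM, at a difference of 1.87 (adjusted p = 0.0043), which became 1.02 when its probe sets were averaged. The 14 follicular helper genes had 3 higher (*Cd200*, *Il21*, *Icos*) and 2 lower (*Slamf6*, *Btla*), and *Bcl6*, which defines these cells, read 7.47 and 7.46 in TEM cells and 7.96 and 7.98 in TCM cells (-0.51, SE 0.21, adjusted p = 0.234). Of 11 regulatory T cell genes only *Ikzf2* was called. Of 19 T cell receptor signalling genes only *Cd5* was called (0.76, adjusted p = 0.0426), and of 10 FOXO1 and KLF2 target genes *Klf2* and *S1pr1*.

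Markers of other cells were measured in the same arrays. Some B cell and MHC class II genes were above the naïve level in both cultured groups: *Cd79b*, a chain of the B cell receptor, read 8.77 and 8.41 in TEM cells, 8.89 and 8.59 in TCM cells and 4.05 and 4.64 in naïve cells (TEM minus TCM -0.15, adjusted p = 0.832), and *H2-Aa*, an MHC class II gene, 12.18 and 12.02, 11.48 and 11.52, and 6.34 and 5.81 (0.60, SE 0.85, adjusted p = 0.751). Over 14 B cell markers the summed signal, on the log2 scale, was 11.69 and 11.63 in TEM, 12.45 and 11.89 in TCM and 11.48 and 11.41 in naïve cells, 1 gene was called lower (*Vpreb3*, -1.25, adjusted p = 0.0251) and 0 higher, 4 had an unadjusted p under 0.05, and 11 of the 14 differences were negative, with a median of -0.30 and a lowest value of -2.11. *Vpreb3*, of the surrogate light chain, lost its call without TEM replicate 1 (adjusted p = 0.137), TEM replicate 2, TCM replicate 1 or either CD8+ TEM array. Of 6 MHC class II and 12 myeloid genes none was called by limma (0 and 2 at an unadjusted p under 0.05), and the summed myeloid signal was 11.60 and 11.55 in TEM and 11.35 and 11.41 in TCM cells. *Cd8a* was higher, at 7.67 and 8.17 in TEM cells, against 3.93 and 5.38 in TCM cells (3.26, SE 0.41, adjusted p = 0.00351), which became 1.92 when its probe sets were averaged, while *Cd8b1*, the partner chain of *Cd8a*, read 5.25 and 4.94 in TEM cells and 5.21 and 5.57 in TCM cells (-0.29, adjusted p = 0.528). Of 11 NK cell receptor genes *Klrd1* and *Cd160* were higher, against 3.89% of all genes. None of 4 NKT and γδ T cell or 3 erythroid markers was called (1 of each at an unadjusted p under 0.05). The part of other cells in the differences above was not tested.

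Naïve cells served as a common point for placing the 2 subsets, as a description. Of the 707 genes higher in TEM cells, the naïve mean was nearer to that of TCM cells for 529 (74.8%), and of the 298 lower ones for 165 (55.4%), against 52.5% of all genes. Of the 20 largest rises, the naïve mean was nearer to the TCM mean for 19, with *Maf* the exception, and it was under 6 for 19. The TCM mean was under 6 for all 20 and the TEM mean for 0. The 19 therefore largely follow from selection by the size of the difference and do not place the subsets. Of the 20 largest falls it was nearer to the TCM mean for 9. *Il6ra* and *Atp1b1* belong to those in which naïve cells lay above TCM cells, at 12.33 and 12.45 for *Atp1b1*, and *Kcnip3* to those in which naïve cells were as low as TEM cells, at 2.96 and 3.24.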

How the data were processed

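RNA of sorted mouse T cells was hybridized to Affymetrix mouse genome arrays. The deposited values are log2 signals that the authors obtained by RMA (background correction, quantile normalization, probe set summary). They include no detection calls. Precision is limited by how many arrays there are, and the fold of a gene that is dim in a group may be understated. Groups came from sample titles. Each gene was represented by its probe set with 1 gene symbol and the highest mean over the 10 arrays. A group-means model was fitted in limma 3.58.1 (R 4.3.3, with statmod 1.5.0) to all 10 arrays in 5 groups (5 residual degrees of freedom), and p-values were adjusted by the Benjamini-Hochberg method over all 18193 genes, with an adjusted p under 0.05 as the threshold. The fit was tested on simulated data. Figures were drawn with matplotlib 3.10.9.

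The text names the 20 largest rises and the 20 largest falls among called genes with no overlap and a mean of at least 6 in the brighter group, up to 8 called members of each of 39 gene lists, and *Cd44*, *Foxo1*, *Ccr7*, *Il7r*, *Tbx21*, *Eomes*, *Prdm1*, *Gzmb*, *Prf1* and *Il2ra* whether called or not. A further gene of that rule is not reported here. Every other gene with a value, among them all other uncalled genes, was chosen after its values were seen. The members and lists were chosen with earlier results of these data known. Lists were described by counts and medians, with no set test. The alternatives were the arrays in the fit, the probe set for each gene, filters on low signal and low variation, the normalization, the variance moderation, a replicate block and leaving out each array. The methods' filter on variation and mean-centring are not in the deposited table. Promoters (250 bases before to 50 after a gene's start) came from RefSeq (GRCm38.p6), matched by gene symbol.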

Additional observations from a re-analysis of the deposited data

How the results depend on the processing

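With 2 arrays in each group the number of calls depended on which arrays entered the fit and on their weights. Against 1005 calls (707 higher in TEM cells and 298 lower), the fit of the 4 arrays compared gave 223 (180 and 43), that of the 6 CD4+ arrays 594 (433 and 161) and array weights 677 (511 and 166). Leaving out single arrays gave 490 to 1140 calls, 385 to 797 higher and 105 to 373 lower, of which 325 to 624 and 83 to 258 were also called with all arrays. The fit of the 10 arrays with a replicate block gave 908 calls, and the 4 arrays with a replicate block 109 (99 and 10). Whether the replicate numbers pair the samples is not stated. Deviations of same-numbered TEM and TCM arrays from their group means correlated at -0.009 over 18193 genes, as a description. No shared deviation was visible, but 2 arrays in each group are too few to decide whether same-numbered arrays came from the same culture or animal. Each of the other fits gave between 972 and 1141 calls.

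Of 119 called genes named, 40 kept the call in every alternative and 73 when any single array was left out. In all, 2229 values of these genes kept their direction and side of the threshold and 381 missed the threshold in the same direction. Uncalled genes turned sign: *Prf1* (0.0682 with the mean of probe sets, -0.56 to 0.27 without single arrays), *Tbx21* (-0.0653 with quantile normalization, -0.10 to 0.23 without single arrays) and *Cd79b* (-0.332 to 0.0256 without single arrays). Genes at low signal in a group are the least certain, as the values carry no measure of detection.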
